A study of Homo sapiens with 4 samples.

Results

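The heat shock genes described here are HSF1 and 9 chaperone genes, HSPA1A, HSPA1B, HSPA8, HSPH1, HSP90AA1, HSP90AB1, DNAJB1, HSPD1 and HSPE1. They were taken by name and make up 10 of the 20323 genes listed. RNA was measured in NK-92, an established human natural killer cell line. The aim was to examine the part of ADAR1, an RNA-editing enzyme, in the antitumor capacity of NK cells. All cells were grown with 100 IU/ml of recombinant interleukin 2, 12.5% fetal bovine serum and 50 µM mercaptoethanol. NK scramble cells had received a lentivirus with a scrambled hairpin (shscramble), and NK shADAR1 cells a lentivirus with a hairpin against ADAR1, both with polybrene and a spin at 32 °C. Neither group had a heat treatment in the sample labels, and no library of cells without virus was analysed here. Each group had 2 libraries, which the series describes as independent biological replicates. The study's text says that cells with the hairpin called shADAR1-2 were sequenced, so the library labels shADAR1-1 and shADAR1-2, which are also names of its hairpins, were read as replicate numbers.

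Heat shock proteins are chaperones, which hold unfolded protein and help it to fold. In the cytosol, a J domain protein such as DNAJB1 brings a client to HSP70, an exchange factor such as HSPH1 resets HSP70, and many kinases and receptors then pass to HSP90. HSF1 is the transcription factor that is set free when unfolded protein occupies these chaperones, and it then binds heat shock elements, inverted repeats of the bases GAA, in front of their genes. The name cytosolic covers 7 of the 10 genes. HSPD1 and HSPE1 encode the chaperonin and its lid in mitochondria, and HSF1 is a regulator and no chaperone.

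The promoters are shown because these repeats are the feature that links most of the genes to HSF1. RefSeq promoter windows (GRCh38.p14, 250 bases before to 50 bases after a start site) were given for 9 of the 10 genes. The 2-unit repeats searched were GAANNTTC and TTCNNGAA, and the 3-unit repeats were GAANNTTCNNGAA and TTCNNGAANNTTC. The 2-unit forms read the same on both strands, the 3-unit forms overlap them, and both strands were searched. A 2-unit repeat was found for 7 of the 9 genes against 16.18% of all 27305 gene symbols with a window, and a 3-unit repeat for 4 against 0.608%. A gene with several windows counted if any of them matched. The genes were chosen as HSF1 and its targets, so a share above that of all symbols was built into the choice and is no separate result. Capitals mark the repeat in each 30-base stretch, written 5′ to 3′ on the strand of the gene.
HSPA8, chr11:123062345-123062374 (minus): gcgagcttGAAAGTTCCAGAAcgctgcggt
HSPA8, chr11:123062170-123062199 (minus): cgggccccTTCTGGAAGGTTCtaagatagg
HSP90AA1, chr14:102087111-102087140 (minus): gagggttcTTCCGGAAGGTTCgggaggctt
HSP90AB1, chr6:44247770-44247799 (plus): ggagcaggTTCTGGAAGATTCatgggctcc
HSP90AB1, chr6:44247823-44247852 (plus): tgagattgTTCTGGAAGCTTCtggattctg
HSPD1, chr2:197500061-197500090 (minus): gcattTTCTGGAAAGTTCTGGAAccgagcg
DNAJB1, chr19:14518456-14518485 (minus): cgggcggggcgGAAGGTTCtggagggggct
DNAJB1, chr19:14518426-14518455 (minus): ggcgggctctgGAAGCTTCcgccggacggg
HSPA1A, chr6:31815426-31815455 (plus): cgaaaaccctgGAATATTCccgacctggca
HSPA1B, chr6:31827622-31827651 (plus): cgaaacccctgGAATATTCccgacctggca

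The HSPA8 repeats began 230 and 55 bases before a start site. Those of HSP90AB1 began 165 and 112 bases before the most downstream of its listed starts, at 44247943. That of HSP90AA1 began 88 bases before its most downstream listed start, at 102087044. The windows at the other listed starts of HSP90AB1 and HSP90AA1 held no match. HSPD1 held 4 units in a row, 245 bases before the downstream of its 2 listed starts, within a stretch that GENCODE 29 gives as exon. The HSPA8 and HSP90AA1 stretches also lie in annotated exons of these genes, while those of HSP90AB1, DNAJB1, HSPA1A and HSPA1B do not. No repeat of these letters was in the windows of HSPH1 and HSPE1. The HSPD1 stretch ends at 197500090, shortly before the HSPE1 window, which begins at 197500129. Further 2-unit repeats of HSP90AA1 and DNAJB1 are not shown. A match is a run of letters, and binding of HSF1 was not measured.

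The library totals were 37881704 to 39960491 estimated counts, and the 10 genes took 0.643 to 0.879% of them. All 10 passed the filter on low counts, among 11810 genes tested. ADAR had 655 and 682 CPM (TMM-scaled counts at a common depth, given here with replicate 1 before replicate 2) as NK scramble, and 575 and 482 CPM as NK shADAR1, so the groups did not overlap. For ADAR the log2 fold change was -0.34 ± 0.20 (SE, unadjusted p = 0.127, adjusted p = 1.00, edgeR quasi-likelihood test). The study checked the knockdown by qRT-PCR and western blotting, which are separate from these libraries. All 14 NK cell markers had a mean of at least 1 FPKM, with summed levels of 3426 to 3809 in NK scramble and 3544 to 3893 in NK shADAR1. Of 8 T cell markers only CD3E (396 to 554 FPKM) and CD28 (31.1 to 46.4 FPKM) reached a mean of 1 FPKM. CD8A and CD8B were listed at 0 in every library. The T cell markers summed to 427 and 535 FPKM in NK scramble and 498 and 594 FPKM in NK shADAR1. B cell markers summed to 3.0 to 7.8 FPKM and myeloid markers to 6.4 to 8.5 FPKM. The summed epithelial and melanoma markers stayed at or under 0.5 FPKM.

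None of the 10 genes differed between the groups by an edgeR adjusted p under 0.05 and a 1.5-fold change, a call that 0% of tested genes passed. The study itself, using DESeq2 with the same thresholds, did report differentially expressed genes. HSPA8, the constitutive HSP70, was the 1 gene whose groups did not overlap. Both its NK shADAR1 libraries were lower, the order of 12.6% of tested genes, and 13.3% had the opposite order. Its fitted fold, NK shADAR1 over NK scramble, was 0.687. In bulk RNA, fewer cells with a transcript and less of it per cell cannot be told apart. DNAJB1, its J domain partner, had almost the same fitted fold of 0.686, with groups that overlapped narrowly. The abundant HSP90 genes and the mitochondrial chaperonin genes had fitted folds between 0.934 and 1.04. The differences between libraries of 1 group were as large as or larger than these values for most of the genes.

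In FPKM, which divides by transcript length and so allows genes to be compared, HSP90AB1 and HSPA8 stood at the top. HSP90AB1 ranged from 998 to 1320 FPKM over the 4 libraries and HSPA8 from 810 to 1547 FPKM, so their order was not fixed. By their means of 1171 and 1141 FPKM they ranked 82 and 87 of all genes. HSP90AA1 (245 to 398 FPKM), HSPD1 (278 to 331 FPKM) and HSPE1 (166 to 276 FPKM) followed, and the range of HSP90AA1 overlapped both others. HSPH1 (42.9 to 66.6 FPKM) and DNAJB1 (30.7 to 63.9 FPKM) also overlapped each other. HSF1 lay below them in every library at 18.0 to 27.8 FPKM. The stress-inducible pair came last, HSPA1B with 1.88 to 3.67 FPKM and HSPA1A with 0.605 to 1.10 FPKM. HSPA8 RNA thus outweighed that of the pair in all 4 libraries. The ratio of the summed pair to HSPA8 was 0.00277 and 0.0026 for NK scramble against 0.00376 and 0.00281 for NK shADAR1.

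HSF1, the regulator (chromosome 8, 144291591 to 144314722, GENCODE 29 on GRCh38, plus strand), had 56.8 and 37.4 CPM as NK scramble, and 44.2 and 35.9 CPM as NK shADAR1. The groups overlapped, with NK scramble replicate 1 apart from the other libraries. Its log2 fold change was -0.23 ± 0.24 (SE, 95% interval -0.77 to 0.30, adjusted p = 1.00). Without NK scramble replicate 1 it was 0.097. HSF1 shares exon sequence with DGAT1 on the opposite strand, and the library kit named in the labels is not stated to keep strand. DGAT1 had 21.1 and 10.6 CPM among NK scramble libraries, compared with 16.6 and 11.2 CPM among NK shADAR1 libraries, with replicate 1 the higher library of each group as for HSF1, and its part in the HSF1 values was not tested.

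HSPA8 (chromosome 11, 123057489 to 123063230, minus strand), the HSP70 made in unstressed cells, stood at 3388 and 2608 CPM with the scrambled hairpin. With shADAR1 it stood at 1679.5 and 2438 CPM. Both NK shADAR1 libraries were therefore below both NK scramble libraries, but replicate 2 only just, by 2438 against 2608 CPM. The log2 fold change was -0.54 ± 0.25 (SE, 95% interval -1.10 to 0.016, unadjusted p = 0.0558, adjusted p = 1.00). It was -0.30 without NK shADAR1 replicate 1 and -0.84 without NK shADAR1 replicate 2, a sign that the separate groups fix. HSPA8 was 1 of 10 genes with both NK shADAR1 libraries lowest, while 12.6% of tested genes had that order, and 0 of 10 had the opposite order, against 13.3% of tested genes. GENCODE 29 lists 17 HSPA8 pseudogenes, none of them in the deposited table, so where their shared reads were placed is not known.

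**Figure D1:**
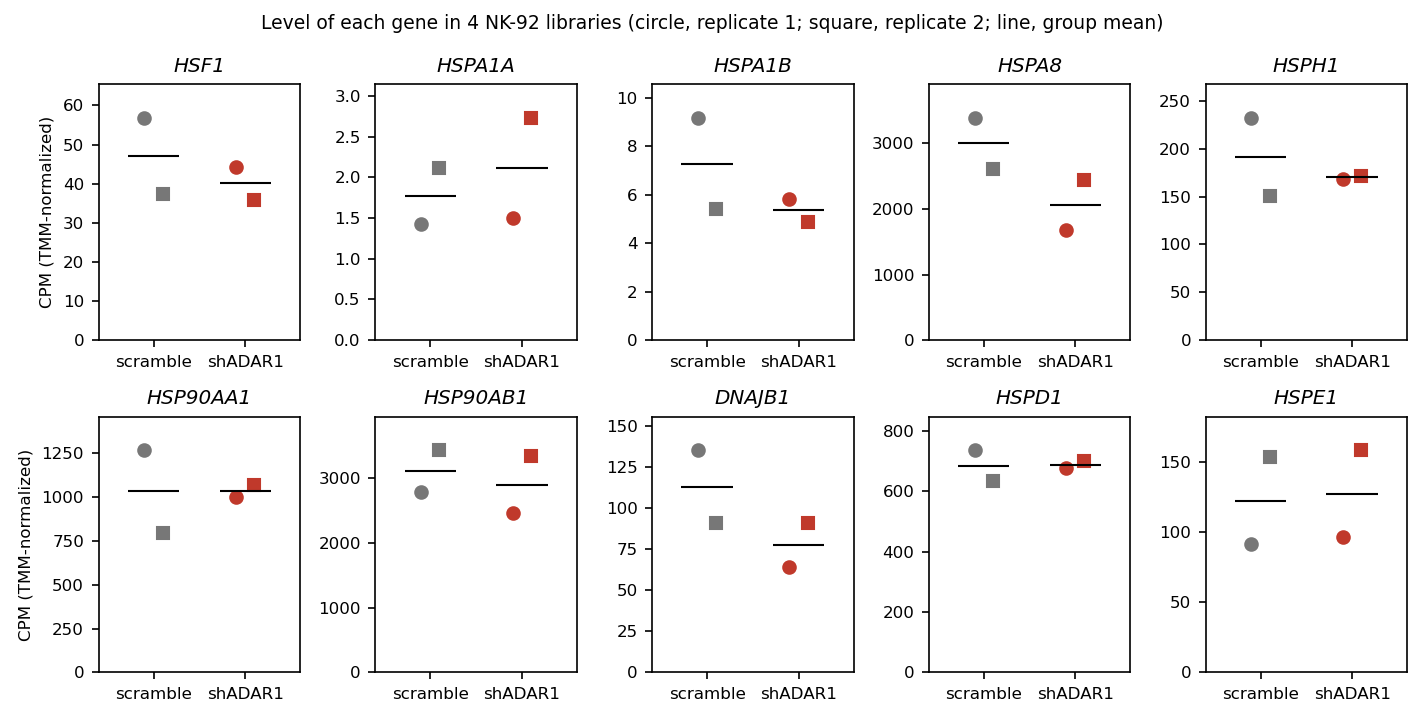
CPM of each of the 10 genes in the 4 NK-92 libraries, each panel on its own linear axis from 0. Grey points are NK scramble and red points NK shADAR1, circles are replicate 1, squares replicate 2 and lines group means of 2 libraries. Only the HSPA8 panel has both red points (1679.5 and 2438 CPM) below both grey points, the order of 12.6% of tested genes.

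DNAJB1 (chromosome 19, 14514770 to 14529770, minus strand), the J domain protein that stimulates HSP70 and is a strong HSF1 target, had 135 and 90.8 CPM in the 2 NK scramble libraries against 64.0 and 91.2 CPM with shADAR1. The groups overlapped at the middle pair, 90.8 and 91.2 CPM, and the highest and lowest libraries were the replicates numbered 1. Its log2 fold change was -0.54 ± 0.25 (SE, 95% interval -1.11 to 0.023, unadjusted p = 0.0584, adjusted p = 1.00). Without NK scramble replicate 1 it was -0.23 and without NK shADAR1 replicate 1 it was -0.31, while without the replicate 2 of either group it was -0.81 (NK scramble) and -0.82 (NK shADAR1). The ratio of DNAJB1 to HSPA8 in FPKM was nearly level, at 0.0413 and 0.0353 for NK scramble against 0.0378 and 0.0384 for NK shADAR1. TECR overlaps exons of DNAJB1 on the opposite strand and had 106 to 123 CPM in NK scramble and 109 to 114 CPM in NK shADAR1, and its part in the DNAJB1 values was not tested.

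HSPH1, the HSP110 exchange factor (chromosome 13, 31134974 to 31162388, minus strand), had 232 and 150.2 CPM as NK scramble, and 168 and 172 CPM as NK shADAR1. Both NK shADAR1 libraries lay between the NK scramble libraries. Its log2 fold change was -0.17 ± 0.23 (SE, 95% interval -0.68 to 0.34, adjusted p = 1.00), and 0.18 without NK scramble replicate 1.

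The inducible HSP70 genes HSPA1A (chromosome 6, 31815464 to 31817946, plus strand) and HSPA1B (chromosome 6, 31827735 to 31830255, plus strand) are near-identical copies. Their estimated counts were not whole numbers, but their sum was whole to 2 decimals in every library, so the 2 values cannot be read as separate. The sums were 423 and 295 counts in NK scramble replicates 1 and 2 and 288 and 284 counts in NK shADAR1. The share given to HSPA1A varied from 13.6 and 28.2% in NK scramble to 20.5 and 35.8% in NK shADAR1, so the single values are uncertain. HSPA1A had 1.43 and 2.11 CPM among NK scramble libraries, compared with 1.5 and 2.73 CPM among NK shADAR1 libraries, and HSPA1B had 9.17 and 5.40 against 5.82 and 4.87 CPM. The summed pair had a log2 fold change of -0.28 ± 0.27 (SE, 95% interval -0.88 to 0.32, adjusted p = 1.00), where HSPA1A alone had 0.26 and HSPA1B alone -0.44. Apart from NK scramble replicate 1 with 10.6 CPM, the pair was at 7.32 to 7.60 CPM.

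**Figure D2:**
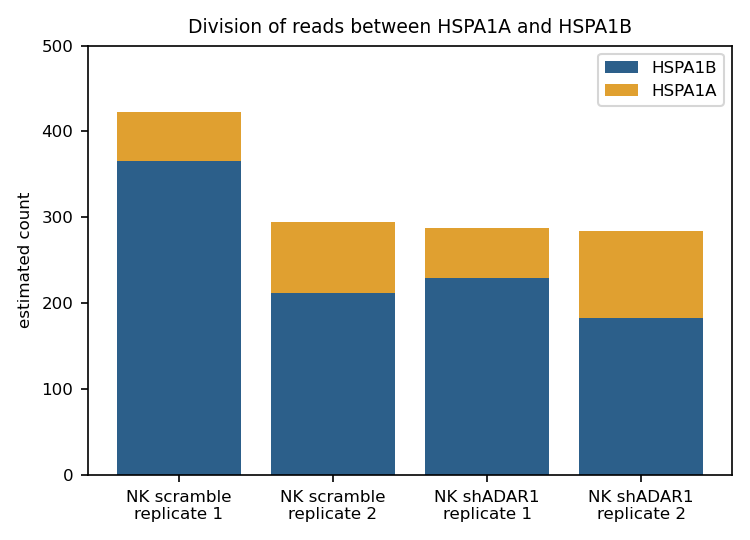
Estimated counts of HSPA1A (orange) stacked on HSPA1B (blue) in each of the 4 libraries, with bars from 0. The sums are 423, 295, 288 and 284 counts, and the orange share varies from 13.6 to 35.8%.

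Of the HSP90 pair, HSP90AA1 (chromosome 14, 102080738 to 102139699, minus strand) is the inducible form and HSP90AB1 (chromosome 6, 44246166 to 44253888, plus strand) the constitutive one. HSP90AA1 had 1267 and 796 CPM in the 2 NK scramble libraries against 997 and 1069 CPM with shADAR1, again with NK shADAR1 inside the span of NK scramble. Its log2 fold change was 0.0026 ± 0.25 (SE, 95% interval -0.55 to 0.56, adjusted p = 1.00), and it was 0.37 without NK scramble replicate 1 and -0.30 without NK scramble replicate 2. HSP90AB1 had 2778 and 3431 CPM as NK scramble, and 2455 and 3341 CPM as NK shADAR1. Here both replicates numbered 1 were the low ones, and the log2 fold change was -0.10 ± 0.24 (SE, 95% interval -0.63 to 0.43, adjusted p = 1.00). The 2 genes thus had opposite orders in the NK scramble libraries, and the ratio of HSP90AA1 to HSP90AB1 in FPKM was 0.363 and 0.186 for NK scramble against 0.323 and 0.255 for NK shADAR1. WDR20 shares exon sequence with HSP90AA1 on the opposite strand and had 21.0 to 25.3 CPM.

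The mitochondrial partners are HSPD1 (chromosome 2, 197486581 to 197516737, minus strand) and HSPE1 (chromosome 2, 197499994 to 197503457, plus strand). In the annotation the span of HSPE1 lies within that of HSPD1, and their exons overlap on opposite strands. HSPD1, the chaperonin ring, was the steadiest of the 10 genes, with 737 and 634 CPM among NK scramble libraries, compared with 677 and 701 CPM among NK shADAR1 libraries. The log2 fold change was 0.0078 ± 0.20 (SE, 95% interval -0.44 to 0.46, adjusted p = 1.00). HSPE1, the lid, had 91.3 and 153.9 CPM in the 2 NK scramble libraries against 96.3 and 159 CPM with shADAR1, so each group held a low replicate 1 and a high replicate 2. The log2 fold change was 0.056 ± 0.30 (SE, 95% interval -0.60 to 0.71, adjusted p = 1.00). The ratio of HSPE1 to HSPD1 in FPKM was 0.501 and 0.980 for NK scramble against 0.576 and 0.911 for NK shADAR1.

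The transcript length of HSPE1 was 0.556 kb, as the ratio of its counts to its FPKM gives it. Among the 139 tested genes of that length or less, the median log2 ratio of replicate 1 to replicate 2 was -0.57 in NK scramble and -0.36 in NK shADAR1, and 71.2% had the lower value in both replicates 1, against 29.8% of all tested genes. For HSPE1 these log2 ratios were -0.75 and -0.72. The part of transcript length in the HSPE1 values was not tested. GENCODE 29 lists 17 pseudogenes of HSPD1 and 26 of HSPE1, none in the table. HSPE1 also overlaps the readthrough gene HSPE1-MOB4, which took 40.1 to 164 counts beside 3647 to 6046 counts of HSPE1.

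**Figure D3:**
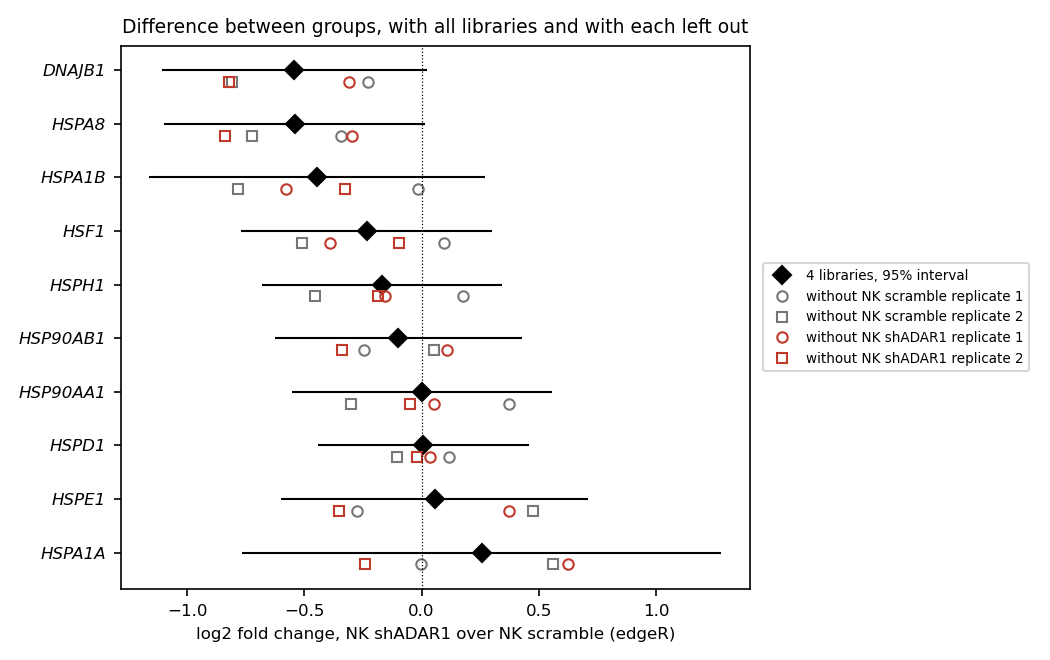
Log2 fold change of each gene, NK shADAR1 over NK scramble, from the edgeR fit to 4 libraries (diamonds, with 95% intervals) and with each library left out (open symbols). All 10 intervals include 0, and for 7 genes the open symbols lie on both sides of 0.

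Over the 10 genes, 6 fitted values were negative and 4 positive, and their median was -0.13 on the log2 scale, beside 2.8e-05 for all tested genes. The median was -0.0084 without NK scramble replicate 1 and -0.38 without NK scramble replicate 2. In the main edgeR fit no gene of the 10 had an unadjusted p under 0.05, which 2.48% of tested genes had. In the DESeq2 fit made here no gene was called either. There 289 of 15605 genes were under 0.05 unadjusted, among them HSPA8 (0.0278) and DNAJB1 (0.0418). In edgeR with the replicate number as a block, 681 of 11810 genes were under 0.05 unadjusted, among them HSPA8 (0.00917) and DNAJB1 (0.0242). Both were also under 0.05 unadjusted in edgeR with no filter beyond 1 count, as were 431 of 15605 genes. Their log2 fold changes depended on the libraries kept. Without NK scramble replicate 1 they were -0.343 (HSPA8) and -0.229 (DNAJB1), and without NK shADAR1 replicate 1 -0.297 and -0.309. Without NK scramble replicate 2 they were -0.725 and -0.808, and without NK shADAR1 replicate 2 -0.838 and -0.822. In the main fit, HSPA8 and DNAJB1 lay below the 5th percentile of all tested genes, a log2 fold change of -0.37. HSPA1B alone did too, but not its sum with HSPA1A, and 0 of the 10 lay above the 95th, 0.58. For 9 of the 10 genes, the log2 difference between the libraries of at least 1 group was larger than the fitted difference between groups. HSPA8 was the exception by a narrow margin, with -0.538 between its NK shADAR1 libraries (replicate 1 over replicate 2) and -0.542 between groups.

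The order of libraries, chosen for description after the values were seen, was shared by many of the genes. NK scramble replicate 1 was the highest library for 7 of the 10, HSF1, HSPA1B, HSPA8, HSPH1, HSP90AA1, DNAJB1 and HSPD1, while it was the highest for 26.5% of tested genes. HSPA8 and DNAJB1 were in addition lowest in NK shADAR1 replicate 1, an order found for 9.52% of tested genes. In sum the 10 genes had 8697 and 7908 CPM as NK scramble, and 6189 and 8015 CPM as NK shADAR1, so that NK shADAR1 replicate 2 stood between the NK scramble libraries and replicate 1 stood apart. HSPA8, HSP90AA1 and HSP90AB1 made up 82.9 to 86.4% of this sum.

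The wider heat shock list held 103 genes in 9 roles, 102 of them in the table and 90 tested. None was called, and DESeq2 called none. At an unadjusted p under 0.05, 1 gene had a higher level in NK shADAR1, as did 1.7% of tested genes, and 1 had a lower level, as did 0.779%. The median log2 fold change was -0.092, with 63 negative and 27 positive values, while 5905 of all 11810 tested genes were negative. Both NK shADAR1 libraries were below NK scramble for 18 of the 90 genes (12.6% of tested genes) and above for 7 (13.3% of tested genes). That median was -0.035 without NK shADAR1 replicate 1 and -0.17 without NK shADAR1 replicate 2.

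Among the heat shock factors and their regulators, 5 of 7 tested values were positive, with a median log2 fold change of 0.10. HSBP1, a small protein that binds the HSF1 trimer, had the largest mean, 16.3 FPKM, and a log2 fold change of 0.10 ± 0.19 (SE, adjusted p = 1.00). The remaining HSP70 and HSP110 genes had a median of -0.067 over 7 tested, and HSPA4, a second HSP110, led them with 52.5 FPKM and a log2 fold change of -0.067 ± 0.19. HSPA6, an inducible HSP70, was named after its values were seen, and its near-copy HSPA7 was not analysed here. HSPA6 had 43.8 and 45.6 CPM among NK scramble libraries, compared with 46.7 and 50.2 CPM among NK shADAR1 libraries. It thus stood above the HSPA1A and HSPA1B pair, with a mean of 19.8 FPKM.

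The J domain proteins had a median of 0.0042 (log2 fold change) over 15 tested genes, 8 of them positive. DNAJC8, a J domain protein of the spliceosome, led them with 127 FPKM and a log2 fold change of -0.11 ± 0.22. DNAJC13, which acts with HSP70 on endosomes, was the gene with the positive value at an unadjusted p under 0.05. It had 34.8 and 28.7 CPM in the 2 NK scramble libraries against 61.9 and 42.1 CPM with shADAR1, so the groups did not overlap, and its log2 fold change was 0.71 ± 0.24 (SE, 95% interval 0.19 to 1.24, unadjusted p = 0.0127, adjusted p = 1.00). Of the nucleotide exchange factors, 6 of 7 values were negative with a median of -0.15. BAG1, which docks HSP70 to the proteasome, led them with 143 FPKM and a log2 fold change of -0.31 ± 0.20. BAG2, an inhibitor of the ubiquitin ligase STUB1, had 22.2 and 19.3 CPM as NK scramble, and 13.4 and 15.3 CPM as NK shADAR1, with a log2 fold change of -0.53 ± 0.22 (SE, 95% interval -1.0 to -0.047, unadjusted p = 0.0344, adjusted p = 1.00).

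The HSP90 co-chaperones had negative values for 15 of 17 genes, against 5905 of all 11810 tested genes. Their median log2 fold change was -0.17, with values from -0.43 to 0.050. In 7 of the 17 both NK shADAR1 libraries were below NK scramble, the order of 12.6% of tested genes. CDC37, which loads kinases onto HSP90, had the largest mean, 220.0 FPKM, and a log2 fold change of -0.056 ± 0.20. The order seen for HSPA8 and DNAJB1, with NK scramble replicate 1 highest and NK shADAR1 replicate 1 lowest, was that of 9.52% of tested genes and of 10 of the 17, STIP1, AHSA1, PTGES3, FKBP4, PPID, CHORDC1, SUGT1, PPP5C, TOMM34 and CACYBP, named here after their values were seen. In sum these 10, picked for that order, had 2049 and 1739 CPM among NK scramble libraries, compared with 1425 and 1765 CPM among NK shADAR1 libraries, so again NK shADAR1 replicate 2 was not below NK scramble replicate 2. STIP1, which bridges HSP70 and HSP90, had 525 and 419 CPM in the 2 NK scramble libraries against 304 and 431 CPM with shADAR1, with a log2 fold change of -0.36 ± 0.23 (SE, adjusted p = 1.00).

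The TRiC chaperonin and prefoldin, which fold actin and tubulin, had a median of -0.061 (log2 fold change) over 14 genes, led by CCT3 with 394 FPKM and a log2 fold change of -0.069 ± 0.21. The mitochondrial chaperones and proteases had negative values for 13 of 13 genes, against 5905 of all 11810 tested genes. Their median was -0.17, with values from -0.49 to -0.0031. HSPA9, the mitochondrial HSP70, had the largest mean at 286 FPKM with a log2 fold change of -0.011 ± 0.22. In 10 of these 13 the lowest library was NK shADAR1 replicate 1, as in 29.1% of tested genes. The other heat-inducible genes had a median of -0.11 over 10 genes, 4 of them with positive and 6 with negative values. No small heat shock protein passed the filter on low counts. Of these 9 genes 3 were listed at 0 in every library, and the highest of them, HSPB9, had 11 counts at most.

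**Figure D4:**
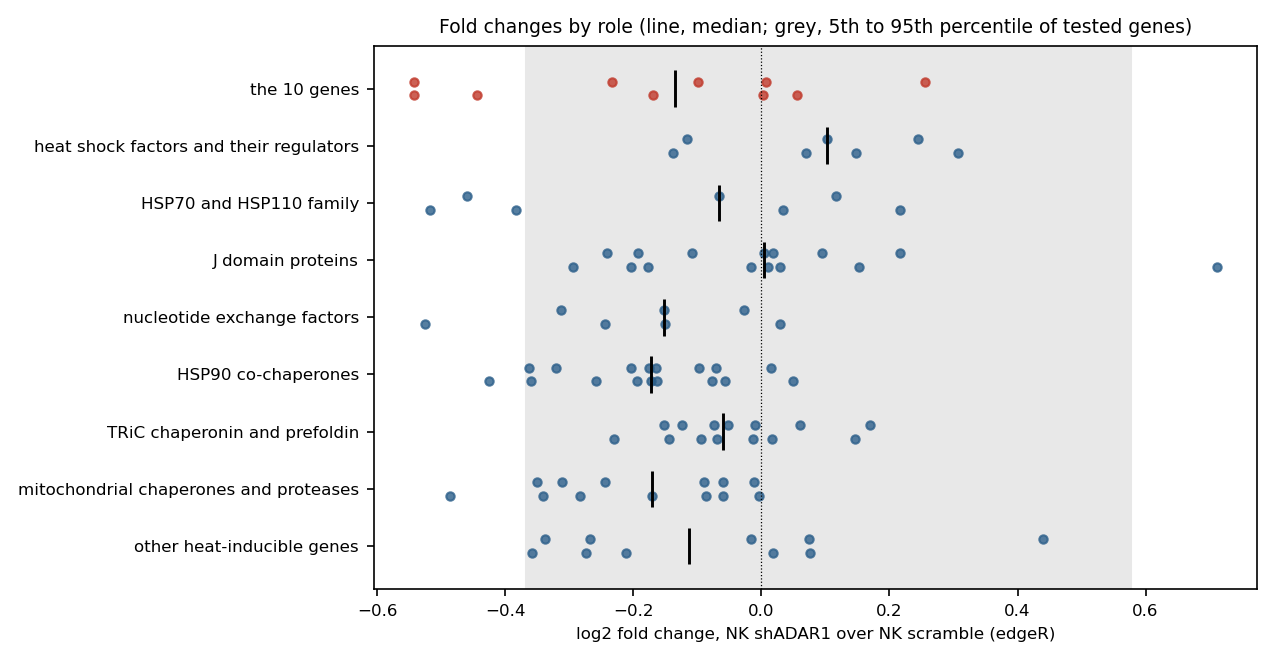
Log2 fold change, NK shADAR1 over NK scramble, of the 10 genes (red) and of the tested genes of the wider list by role (blue), with the median of each row as a line. The grey band runs from -0.37 to 0.58, the 5th to 95th percentile of 11810 tested genes, and most genes of every role lie inside it.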

How the data were processed

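The authors deposited 1 table with estimated counts per gene, not scaled for depth, and FPKM values, which the authors scaled by transcript length and mapped fragments. Oligo(dT)-selected RNA of 2 NK scramble and 2 NK shADAR1 libraries was sequenced. The submitters' processing notes name fastp 0.18.0, and the aligner, counting program and build are not given in the sources used here. Estimated counts were rounded and, after filterByExpr (minimum count 10) and TMM scaling, fitted by edgeR 4.0.16 (R 4.3.3) for its quasi-likelihood test of 11810 genes, adjusted over all of them by Benjamini-Hochberg. FPKM served to compare genes and, in limma 3.58.1, as an alternative. DESeq2 1.42.0 was run too. The standard error is the fold change over the root of F. An exact permutation test of 2 against 2 cannot go below 0.333, so none was used. The 20301 of 20323 identifiers that matched were named by symbol. Named are the 10 genes, ADAR, and of the wider list those at an unadjusted p under 0.05 and the gene of largest mean FPKM per role, of which 1 is not reported here. HSPA6 and 10 co-chaperones were added after their values were seen. The genes and lists were chosen with earlier results of these data known. Scripts were tested on simulated data.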

Additional observations from a re-analysis of the deposited data

How the results depend on the processing

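The count of 0 called among the 10 genes, and of 0 in the wider list, was the same under DESeq2, RLE and upper quartile scaling, both other filters on low counts, limma on log2(FPKM + 1) and log2(FPKM + 0.1), the replicate block, summed HSPA1A and HSPA1B, and each library left out. With an unadjusted p and the fold change of 1.5, the wider list gave 1 gene and all tested genes 213. Over all tested genes, 0 were called with 4 libraries, but 47 without NK scramble replicate 1, 2 without NK scramble replicate 2, 16 without NK shADAR1 replicate 1 and 1 without NK shADAR1 replicate 2. Those fits take the spread of the lone library from the other group. Samples of the 2 groups share numbers, and whether same-numbered samples were prepared together is not stated. With the number as a replicate block 13 genes were called, and HSPA8 had a log2 fold change of -0.56 (edgeR adjusted p = 0.49, range over its alternatives 0.49 to 1.00). At an unadjusted p under 0.05 the block gave 681 of 11810 genes, HSPA8 and DNAJB1 among them. Deviations of same-numbered libraries correlated at 0.308 across genes, which are not independent replicates.

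Of 129 values of the 10 genes under alternatives, 115 kept their direction and 14 did not, 12 of them with 1 library left out. HSP90AA1 was -0.0040 under DESeq2 and -0.0017 with no filter beyond 1 count. With 1 library left out, HSP90AA1 ranged from -0.30 to 0.37, HSP90AB1 from -0.34 to 0.11, HSPE1 from -0.35 to 0.47, HSPH1 from -0.46 to 0.18, HSPD1 from -0.10 to 0.12, HSF1 from -0.51 to 0.097 and HSPA1A from -0.24 to 0.63. HSPA8 (-0.84 to -0.30), DNAJB1 (-0.82 to -0.23) and HSPA1B (-0.78 to -0.016) stayed negative. The cause was not tested. HSPA1A and HSPA1B had the fewest counts of the 10 genes, 284 to 423 together in a library, and the effect of depth was not tested.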
